A study of Mus musculus with 16 samples.

Results

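Mouse embryonic fibroblasts (MEFs) without the Actg1 locus were compared with wild-type MEFs across the genome, with attention to pathways and gene families other than the actins. The genes described are those with a mean normalised read count of at least 1 over the MEF libraries, which were 21589 of the 21615 genes in the MEF table. The comparison rests on 4 of the 16 libraries in the series. Total RNA was sequenced from 3 groups of MEFs with 2 libraries each: wild type (wt), Actg1 knockout (Actg1 K.O., called KO here) and Actg1 full locus deletion (called locus deletion here). No group is labelled with a treatment, an embryonic age, a way of making the deletion or a number of clones. Libraries within a group carry the numbers 1 and 2, with no word on independent cultures. The p-values therefore reflect library-to-library spread, part or all of which may be technical.

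Actg1 encodes cytoplasmic gamma-actin, which together with beta-actin forms the filaments of non-muscle cells. Actin monomers bind the coactivators MRTF-A and MRTF-B, and their release lets these proteins switch on genes with the transcription factor SRF, many of which encode contractile and actin-binding proteins. The coactivators YAP and TAZ also respond to tension in the actin network, and fibroblasts use that network to pull on and remodel collagen matrix.

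Actg1 lies on chromosome 11 at 120345690 to 120348542 on the minus strand (GRCm38). Its normalised read count was 5737 and 5672 in the wild-type libraries, 25 and 15 in the locus deletion libraries, and 1004 and 1026 in the KO libraries. A normalised read count is the number of reads on a gene divided by a factor for its library, and 1 read was worth 0.879 to 1.09 in these libraries. The log2 fold change of Actg1 was -8.13 ± 0.19 (standard error) in the locus deletion against wild type, with an adjusted p of 1.4e-06. Fold changes were computed on log2(value + 1) with limma in a fit of all 6 MEF libraries, which share an estimate of the spread. A gene is called where its Benjamini-Hochberg adjusted p over all 21589 genes was below 0.05, and "rose" and "fell" are used of called genes. Within 1 Mb of Actg1, 52 genes had a mean of at least 20, of which 3 rose and 6 fell, and the median log2 fold change of the neighbours was -0.01.

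The fibroblast label was checked against 12 marker genes, of which 9 had a mean of at least 20. Col1a1, Col1a2, Fn1, Vim and Prrx1 were high in every library, with Vim between 41304 and 129947. Thy1, Dcn and Lum, which also mark many fibroblasts, were at 3 to 11, 14 to 17 and 7 to 10 in the wild-type libraries and at 5 to 6, 5 to 12 and 0 to 1 in the locus deletion libraries. Lum was 4555 and 4508 in the KO libraries. The summed level of the 12 markers was 241062 and 234417 in the wild type and 182700 and 201253 in the locus deletion, with 5 of the 12 lower and 0 higher. Vim was the largest part of these sums. Of the 5, Col3a1, Pdgfra, Vim and Lum were not called in a fit of the 4 compared libraries alone. Col1a1 and Twist1 were among those not called in the fit of 6. In bulk samples such as these, fewer cells of a type and less RNA per cell cannot be told apart.

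The deletion went with changes in many genes of moderate size. In the fit of 6 libraries, 2042 genes rose (9.46% of those tested) and 2713 fell (12.6%), and the change was at least 2-fold for 435 and 908 of them. The median log2 fold change over all genes tested was 0.0, and values summed to between 20305511 and 22094490 per library. The counts depend on the estimate of the spread: with the 4 compared libraries alone, 699 genes rose (3.24%) and 1189 fell (5.51%). Without KO library 1 the counts were 693 and 1188, and without KO library 2 they were 696 and 1188. Leaving out wild-type library 1 gave 745 and 1030, wild-type library 2 gave 711 and 1181, locus deletion library 1 gave 1223 and 1676, and locus deletion library 2 gave 1069 and 2207. The number of members called with 4 libraries alone is therefore given beside the lists and families, and a gene named with its values was also called with those 4 libraries unless stated. Members called with 4 libraries alone are not always among those called with 6. Against the KO libraries in the same fit, 4468 genes were higher in the locus deletion (20.7%) and 5286 were lower (24.5%), which became 2680 and 3024 without KO library 1 and 2790 and 2946 without KO library 2. The KO was compared with the same wild-type libraries, so its values stand beside those of the locus deletion as values only.

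Genes shifted together along 5 chromosome stretches. On chromosome 4, which carries among others Jun, Klf4, Hspg2 and many cell cycle genes, 471 of 734 genes with a mean of at least 20 fell (64.2%) and 17 rose, with a median log2 fold change of -0.48, or 0.715 times the wild-type level. The stretch ran over nearly the whole chromosome (chr4:3549041-156247616). On chromosome 7 (chr7:45215753-116443449), 213 of 341 genes rose (62.5%) and 7 fell, and the median was 0.63, or 1.55-fold. The remaining 583 genes of chromosome 7 had a median of 0.04. Parts of chromosome 6 (chr6:3333194-39377675) and chromosome 12 (chr12:80335848-116463731) were lower, with 61.3% of 137 genes and 53.7% of 188 genes falling and medians of -0.55 and -0.44. The rest of those chromosomes had medians of -0.01 and 0.11. A short part of chromosome 15 (chr15:59374247-74728034), which holds Myc and Ptk2, was higher, with 18 of 30 genes rising and a median of 0.45. Chromosome 14 formed no stretch by the rule, but 33.8% of its 423 genes fell and 4.73% rose, with a median of -0.20. Chromosome 5 formed none either, and 24.7% of its 906 genes fell and 4.53% rose, with a median of -0.16.

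The shifts were of similar size in each library. On chromosome 4 the median difference of each locus deletion library from each wild-type library lay between -0.53 and -0.45, while the wild-type libraries differed from each other by -0.02 and the locus deletion libraries by 0.07. On chromosome 7 those differences lay between 0.59 and 0.62, against 0.0 and 0.05 within the groups. In the KO against the same wild-type libraries, the medians over these stretches were 0.09 on chromosome 4, -0.41 on chromosome 6, 0.21 on chromosome 7, -0.32 on chromosome 12 and 0.26 on chromosome 15. The direct difference between locus deletion and KO had medians of -0.59 on chromosome 4 and 0.43 on chromosome 7, and of -0.04 and -0.10 on chromosomes 6 and 12. The number of DNA copies was not tested. The stretches were found from windows of 10 neighbouring genes in which at least 6 were called in the same direction, and the rule for joining windows was chosen after the values were seen. The shares called and the medians inside a stretch, and those of the rest of its chromosome, therefore follow in part from the rule.

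The stretches hold 2496 of the genes tested, of which 287 rose and 738 fell. Outside them, 1755 of 19093 genes rose (9.19%) and 1975 fell (10.3%). Counts outside the stretches are given for the lists described at length and where they turn the balance of a list. These counts still include genes of shorter runs that met the window rule, such as those on chromosomes 1, 5 and 9.

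**Figure D1:**
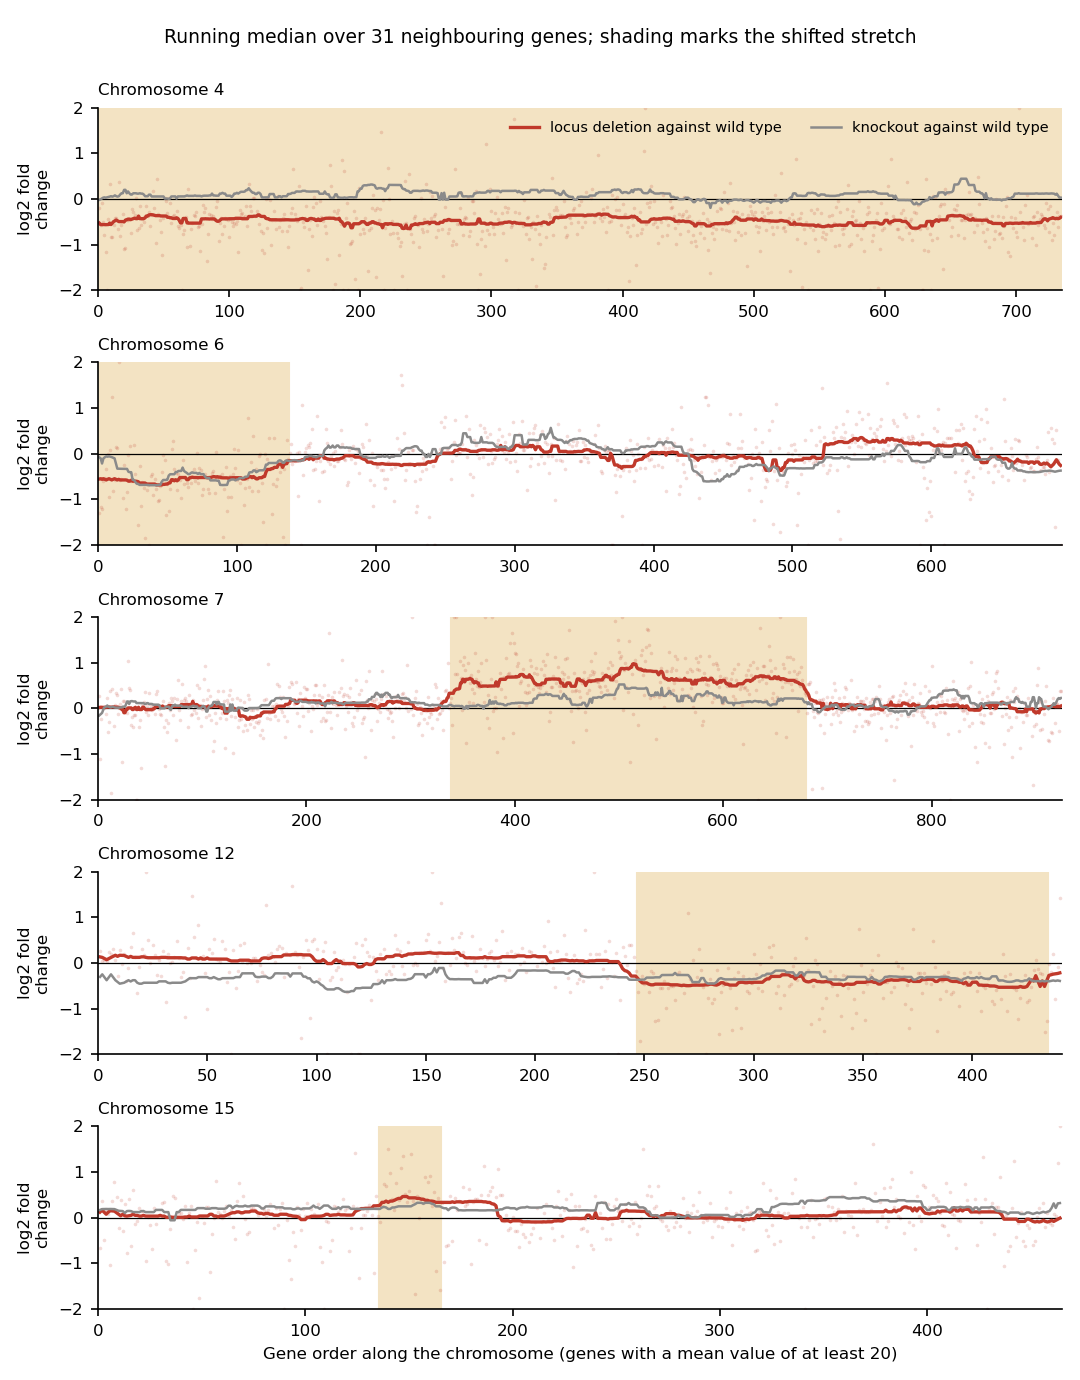
Log2 fold change of genes with a mean of at least 20, in gene order along 5 chromosomes. Points are genes in the locus deletion against wild type, with values beyond the axis drawn at its edge, and lines are running medians over 31 genes for the locus deletion (red) and the KO (grey). The red line lies below 0 along the whole of chromosome 4 and steps up and down at the edges of the shaded stretches of chromosomes 7 and 12. On chromosome 15 it stays above 0 for some genes past the shaded stretch.

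Gene lists differed in how many members moved and in which direction. Among genes with a mean of at least 20, a level that most list members exceed, 14.3% rose and 17.6% fell, and this is the closer background for the lists. Targets of SRF and MRTF, the integrated stress response, mitotic genes and ribosomal proteins rose more often than that. Interferon-stimulated genes, complement genes, guidance cues and S phase genes fell more often. Lists near the background included the factors of mRNA decay, with 7 of 38 higher and 4 lower (1 and 1 with the 4 libraries alone), the tubulins, with 2 of 13 higher and 1 lower (2 and 1), and the histone methyltransferase complexes of the COMPASS family, with 1 of 17 higher and 2 lower (0 and 1).

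**Figure D2:**
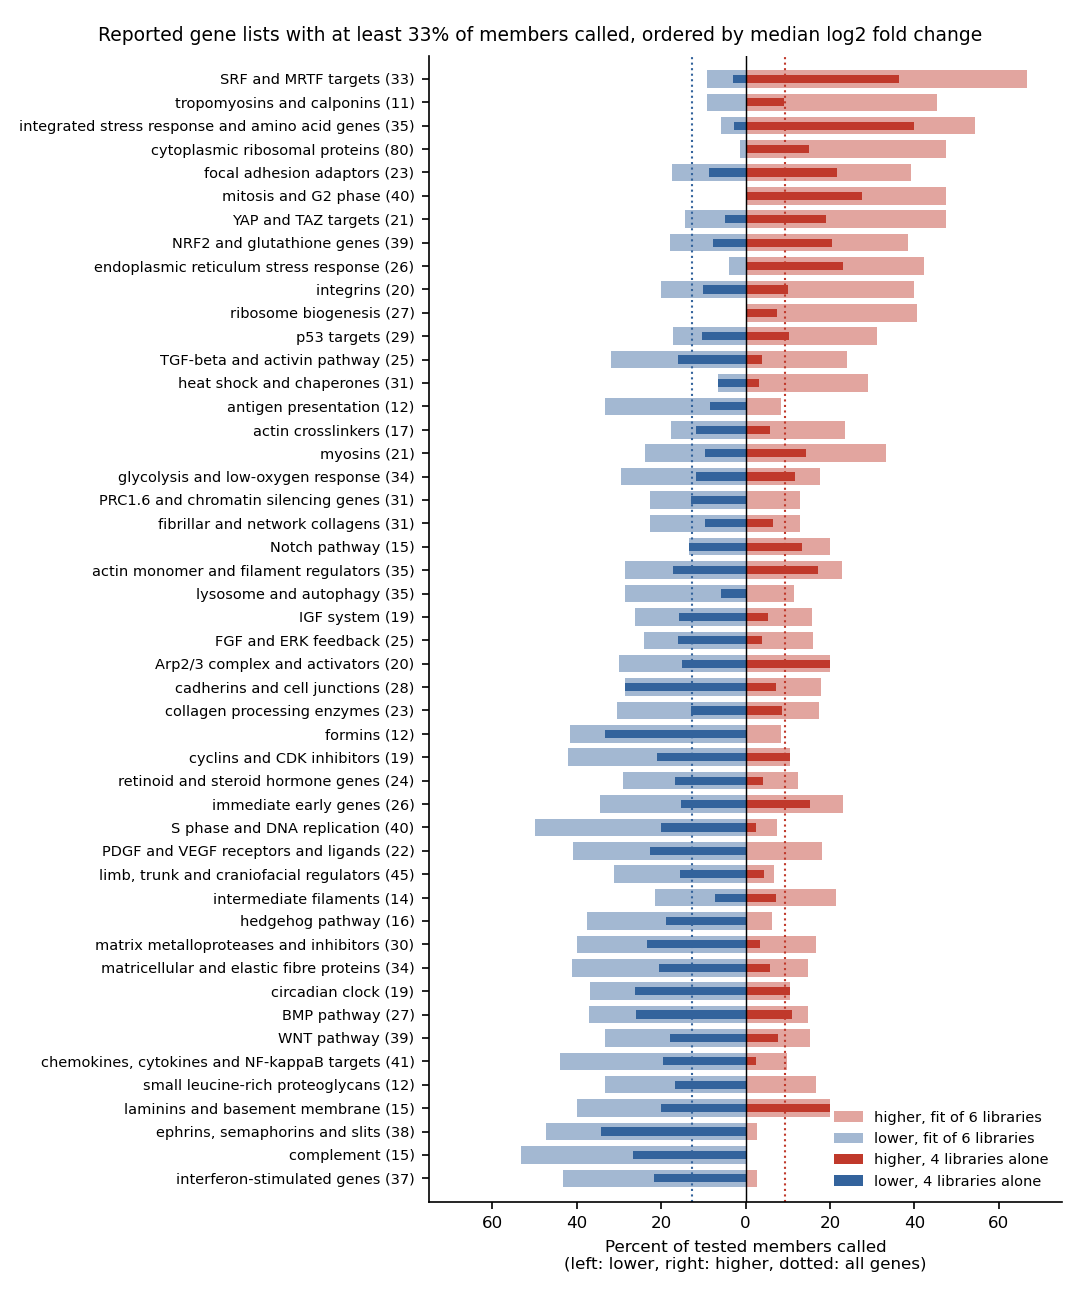
Percent of tested members called lower (left) and higher (right) for the gene lists reported here with at least 10 members tested and at least 33% called, ordered by the median log2 fold change. Pale bars are the fit of 6 libraries, dark bars the fit of the 4 compared libraries, and dotted lines the percent of all genes called (12.6 and 9.46). SRF and MRTF targets stand at the top with 22 of 33 members higher, and interferon-stimulated genes at the bottom with 16 of 37 lower.

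Several genes went from clear expression to none or almost none. Of the genes with a wild-type mean of at least 20, 30 were listed at 0 in both locus deletion libraries, and none was at 0 in both wild-type libraries with a locus deletion mean of at least 20. Ptprd, a receptor tyrosine phosphatase, was 427 and 398 in the wild type and 0 and 0 in the locus deletion, which is at least 137-fold lower against a floor of 3 reads in each library (2.64 to 3.28 in normalised read counts). Fzd3, a WNT receptor of the Frizzled family, was 201 and 189 against 0 and 0, or at least 64.9-fold lower. Bicd1, an adaptor that links cargo to the dynein motor, was 192 and 235 against 0 and 0, or at least 71.0-fold lower. Coro2a, a coronin, was 184 and 186 against 0 and 0, or at least 61.6-fold lower. In the KO libraries these 4 genes were present, with Fzd3 at 944 and 935 and Ptprd at 1349 and 1397.

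Other large falls left 1 or a few reads. Bmp5, a bone morphogenetic protein, was 293 and 312 in the wild type and 1 and 0 in the locus deletion. Etv1, an ETS transcription factor downstream of growth factor signalling, went from 323 and 379 to 0 and 1. Tbx4, a hindlimb transcription factor, was 258 and 260 against 0 and 4, a call with an adjusted p of 0.00033 that was 0.05007 with the 4 libraries alone. Tenm3, a teneurin involved in neuronal wiring, had enough reads left for a fold change: 1243 and 1048 against 15 and 13, a log2 fold change of -6.25 ± 0.12 (adjusted p = 5.6e-07). Hapln1, a link protein of hyaluronan matrix, was 422 and 424 in the wild type, 1 and 2 in the locus deletion and 1 and 4 in the KO. Itm2a, Stmn2 and Clec1a were likewise low in both, at 1 to 28 in the KO, while Bmp5, Etv1, Tbx4 and Tenm3 kept 201 to 779 in the KO. Of the 20 largest falls, 3 lie in the shifted stretches and 19 were called with the 4 libraries alone.

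**Figure D3:**
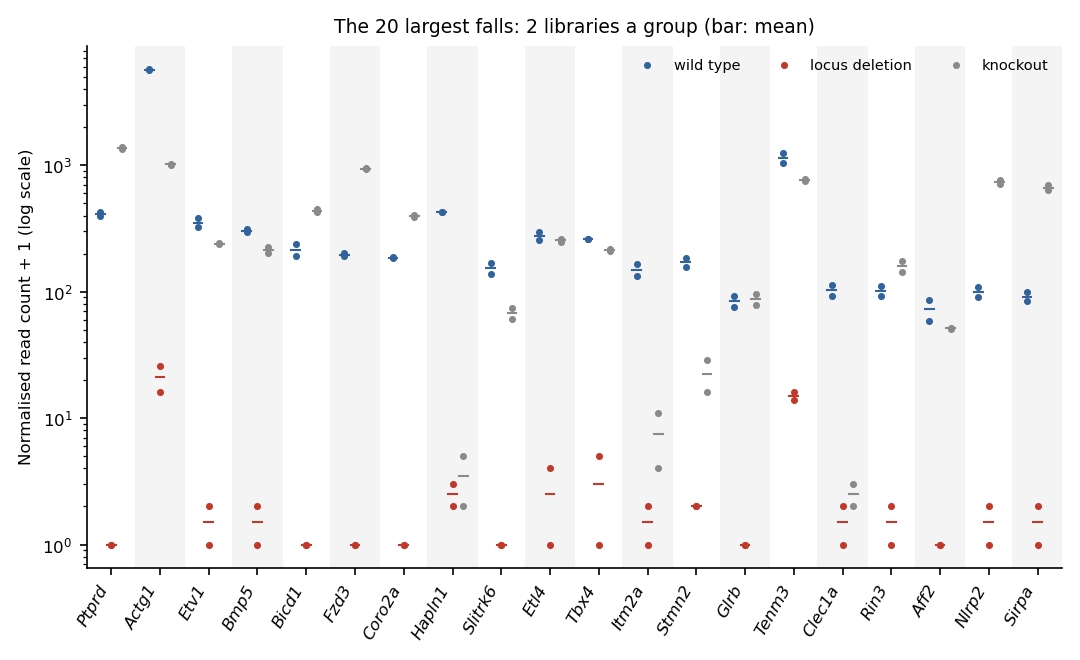
Normalised read count + 1 on a log axis for the 20 largest falls, with 2 libraries a group as points and the group mean as a bar. Locus deletion points sit at or near the lower edge (counts of 0 to 4) for all but Actg1 and Tenm3. KO points lie far below wild type for Hapln1, Itm2a, Stmn2 and Clec1a.

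The largest rises were from low levels. Srpx2, a secreted sushi-repeat protein, was 62 and 70 in the wild type and 576 and 637 in the locus deletion, a log2 fold change of 3.18 ± 0.13 (adjusted p = 1.2e-05). Tns4, a tensin that binds integrin tails, rose from 17 and 23 to 210 and 233, and was 16 and 16 in the KO. Pdk4, a kinase that turns off pyruvate dehydrogenase, rose from 36 and 15 to 401 and 454, against the direction of its stretch on chromosome 6, and was 327 and 359 in the KO. Slfn2, a Schlafen gene, was 4 and 1 in the wild type and 67 and 71 in the locus deletion. Mrvi1, an inositol trisphosphate receptor partner of smooth muscle that lies in the chromosome 7 stretch, rose from 47 and 44 to 289 and 352. The predicted gene Gm10800 rose from 243 and 287 to 6163 and 3181, and the handling of reads that match several places is not given. Of the 20 largest rises, 14 were called with the 4 libraries alone. Among the other 6, Mycl, Optc and Nckap1l had adjusted p-values of 0.077, 0.11 and 0.087 there.

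SRF and MRTF targets rose together in the locus deletion. Of 33 members tested, 22 rose and 3 fell, 12 and 1 with the 4 libraries alone, and the list's median log2 fold change was 0.63 against 0.0 over all genes. Outside the stretches 21 of 30 rose and 2 fell. The strongest were genes of contractile filaments, and SRF itself rose. Windows of 3 risers are given as 300 bases around the annotated start, from 250 before to 50 after it, because they hold a CArG box, the site that SRF is known to bind.

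Myl9 (RefSeq, GRCm38.p6, chr2:156775214-156775513, plus strand, box in capitals starting 161 bases before the start): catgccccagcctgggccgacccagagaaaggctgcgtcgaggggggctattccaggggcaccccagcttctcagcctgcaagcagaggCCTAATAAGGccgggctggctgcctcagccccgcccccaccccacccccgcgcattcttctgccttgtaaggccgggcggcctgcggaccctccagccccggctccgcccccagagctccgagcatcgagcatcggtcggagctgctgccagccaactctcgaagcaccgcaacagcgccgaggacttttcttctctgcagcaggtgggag

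Srf (chr17:46556113-46556412, minus strand, boxes starting 82 and 62 bases before the start): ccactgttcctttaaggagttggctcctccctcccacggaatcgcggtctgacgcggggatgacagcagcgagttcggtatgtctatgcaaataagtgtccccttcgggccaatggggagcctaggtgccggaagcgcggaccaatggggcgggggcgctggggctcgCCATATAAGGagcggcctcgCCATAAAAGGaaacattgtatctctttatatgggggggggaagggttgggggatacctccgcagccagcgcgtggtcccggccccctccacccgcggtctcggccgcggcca

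Fhl1 (chrX:56779433-56779732, plus strand, box starting 102 bases before the start): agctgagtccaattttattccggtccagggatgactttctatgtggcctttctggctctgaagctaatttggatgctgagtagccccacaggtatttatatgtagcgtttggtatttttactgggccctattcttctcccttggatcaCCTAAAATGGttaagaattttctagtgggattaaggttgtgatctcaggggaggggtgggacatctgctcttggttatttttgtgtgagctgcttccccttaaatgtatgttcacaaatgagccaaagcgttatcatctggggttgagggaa

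Both strands were searched, and none of the boxes shown overlaps a match to the other motifs searched. A CArG box was found in 8 of 32 windows of this list and in 1.63% of all 32851 windows. By gene, 6 of the 18 risers with a window held a box, as did 1 of the 6 members that were not called and 0 of the 1 that fell. A match describes the letters and does not show binding.

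Lmod1, a leiomodin that starts new actin filaments in smooth muscle, was 56 and 58 in the wild type and 582 and 650 in the locus deletion, a log2 fold change of 3.41 ± 0.13 (adjusted p = 1.2e-05). Nexn, a filament-binding protein of Z-discs, was 774 and 814 against 3067 and 2593, a change of 1.83 ± 0.10. Myl9, the regulatory light chain of non-muscle and smooth muscle myosin, was 3888 and 3881 against 11770 and 13191, a change of 1.68 ± 0.08. The groups did not overlap for these 3 genes. They were picked as strong risers, so the lack of overlap adds no support beyond their calls. Fhl1, a LIM-domain protein of muscle, rose from 5417 and 5413 to 11202 and 11931. Srf rose from 2142 and 1919 to 3794 and 4099, a change of 0.96 ± 0.08 (adjusted p = 0.00017). The LIM proteins Csrp1 and Pdlim5 rose from 2120 and 1909 to 3921 and 4287 and from 4446 and 4263 to 8625 and 9095. Csrp2, a relative of Csrp1, fell from 133 and 147 to 68 and 72.

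Levels in the KO were lower than in the locus deletion for most of these genes. In the direct contrast, Myl9 was higher in the locus deletion than in the KO by 1.47 on the log2 scale (adjusted p = 6.5e-06), Srf by 1.29 (adjusted p = 9.7e-06) and Lmod1 by 2.12 (adjusted p = 1.2e-05). Cnn1, calponin of smooth muscle, went the other way: it was 513 and 502 in the wild type, 1207 and 1214 in the locus deletion and 2158 and 2191 in the KO, and the direct difference was -0.84 (adjusted p = 2.4e-05). Over the whole list, 20 of 33 members were higher and 7 lower in the locus deletion than in the KO.

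Not every cytoskeletal target moved. Vinculin (Vcl) and tropomyosin Tpm1 had log2 fold changes of 0.21 and 0.20, with adjusted p-values of 0.070 and 0.066. Markers of smooth muscle and pericytes went both ways. Of the 8 in the table, Cnn1 rose, as given above, and Cspg4, the NG2 proteoglycan of pericytes, fell from 3328 and 2911 to 1770 and 1794. Tagln, transgelin, was 78 and 84 in the wild type and 115 and 178 in the locus deletion and was not called. The summed level, 3954 and 3542 against 3138 and 3232, is mostly Cspg4, and Myh11, Des, Rgs5, Abcc9 and Notch3 were between 0 and 40 in the wild-type and locus deletion libraries. The part of such cells in the rise of SRF targets was not tested.

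**Figure D4:**
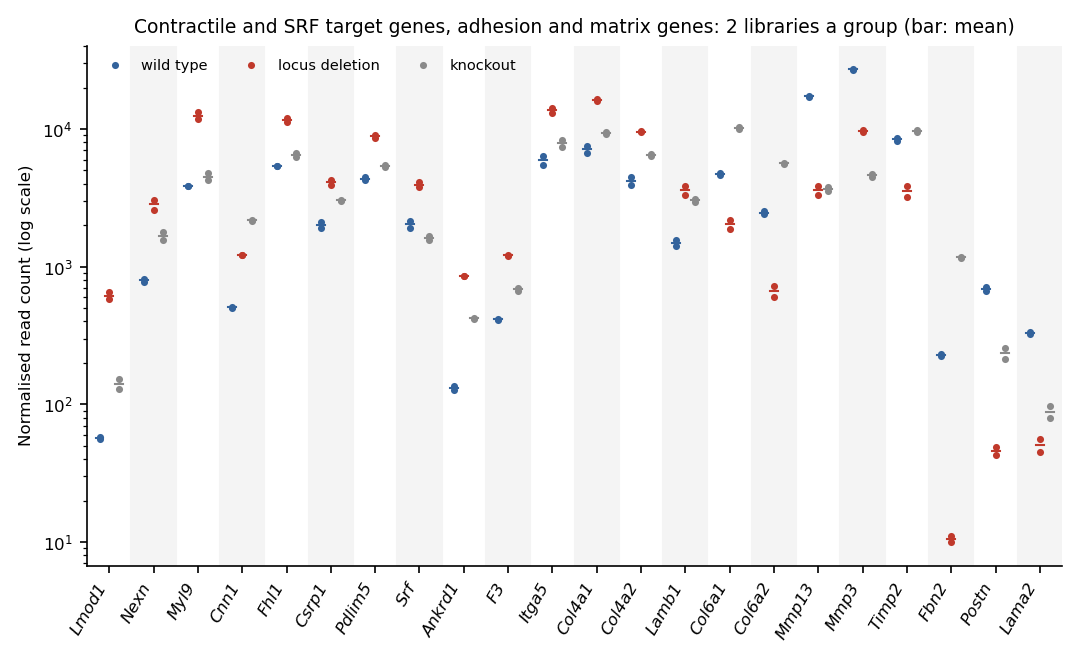
Normalised read count on a log axis for 22 contractile, adhesion and matrix genes, with 2 libraries a group as points and the group mean as a bar. The locus deletion points lie above the wild-type points from Lmod1 to Lamb1 and below them from Col6a1 to Lama2, without overlap. The genes were picked from those called and ordered by direction, so this separation follows in part from the choice.

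Targets of YAP and TAZ rose less evenly. Of 21 tested, 10 rose and 3 fell, 4 and 1 with the 4 libraries alone, and the median was 0.22. Outside the stretches 8 of 18 rose and 3 fell. Ankrd1, a nuclear and sarcomeric ankyrin-repeat protein, rose from 127 and 136 to 849 and 849, a change of 2.68 ± 0.08 (adjusted p = 4.5e-06). F3, tissue factor, rose from 413 and 420 to 1197 and 1222, and Nt5e, the ecto-5'-nucleotidase CD73, from 554 and 515 to 1367 and 1479. The widely used targets Ctgf and Cyr61 were called in the fit of 6 libraries and not with the 4 libraries alone. Ctgf was 7300 and 6170 against 12432 and 15741 (adjusted p = 0.0011 and 0.062 in the 2 fits), and Cyr61 was 9013 and 7964 against 9790 and 10861 (0.046 and 0.19). Amotl1 and Lats2, inhibitors of the pathway, fell by 0.54 and 0.50 on the log2 scale, with Amotl1 not called with the 4 libraries alone.

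Actin regulators moved in both directions. Of 35 regulators of monomers and filaments, 8 rose and 10 fell, 6 and 6 with the 4 libraries alone, and the median was -0.06. Outside the stretches the balance turned, with 8 of 30 higher, 6 lower and a median of 0.06. Tmsb4x, thymosin beta 4, which holds actin monomers, rose from 5483 and 5867 to 10847 and 10577, and Dstn, destrin, which severs filaments, from 8361 and 8999 to 13849 and 15202. Cap2, a cyclase-associated protein, rose from 16 and 9 to 117 and 127 and was 309 and 318 in the KO. The filament-elongating protein Evl, in the chromosome 12 stretch, fell from 852 and 749 to 255 and 315. Among formins, which also elongate filaments, 5 of 12 fell and 1 rose, 4 and 0 with the 4 libraries alone, and Daam2 fell from 343 and 360 to 110 and 129 while it was 1593 and 1650 in the KO.

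The matrix and its receptors changed gene by gene, without a common direction. Of 20 integrins, 8 rose and 4 fell, 2 and 2 with the 4 libraries alone. Itga5, the fibronectin receptor subunit, rose from 6399 and 5460 to 13091 and 14201, a change of 1.21 ± 0.09 (adjusted p = 0.00015). The focal adhesion adaptors had 9 of 23 higher and 4 lower, 5 and 2 with the 4 libraries alone. Lpp, a zyxin relative, rose from 17072 and 16546 to 27300 and 26895, and Tns2, a tensin, fell from 1528 and 1482 to 716 and 734.

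Of 31 collagen genes, 4 rose and 7 fell, 2 and 3 with the 4 libraries alone, and the median was -0.04. Outside the stretches 4 of 25 rose and 5 fell, with a median of 0.06. Col4a1 and Col4a2 encode the chains of basement membrane collagen and share a promoter region from which they are read in opposite directions. Their annotated starts are 21 bases apart on chromosome 8. The RefSeq window of Col4a2 is given with the 78 bases that it shares with the Col4a1 window in capitals.

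Col4a2 (GRCm38.p6, chr8:11312555-11312854, plus strand): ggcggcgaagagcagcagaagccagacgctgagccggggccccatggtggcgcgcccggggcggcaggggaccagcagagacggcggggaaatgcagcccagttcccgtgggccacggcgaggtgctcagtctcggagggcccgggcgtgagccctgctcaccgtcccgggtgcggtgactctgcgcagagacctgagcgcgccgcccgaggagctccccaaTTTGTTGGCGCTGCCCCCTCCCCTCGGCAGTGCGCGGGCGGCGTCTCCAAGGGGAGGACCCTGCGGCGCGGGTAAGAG

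Col4a1 was 7497 and 6732 in the wild type and 15854 and 16559 in the locus deletion, a change of 1.19 ± 0.07, and Col4a2 was 4472 and 3923 against 9478 and 9678, a change of 1.19 ± 0.07. Both rose by the same amount within their errors and had adjusted p-values of 4.2e-05 and 4.8e-05. Whether counting used the strand is not given, and the genes overlap only at their 5' ends. The collagen VI chains fell: Col6a1 from 4830 and 4601 to 1891 and 2173 and Col6a2 from 2428 and 2519 to 606 and 729, changes of -1.22 ± 0.07 and -1.89 ± 0.09. In the KO the collagen VI chains were higher than in wild type, at 10033 and 10265 for Col6a1 and 5704 and 5614 for Col6a2. Against the KO, 19 of the 31 collagen genes were lower in the locus deletion and 4 were higher, and the median of the direct difference was -1.43.

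Among 15 laminins and basement membrane proteins, 3 rose and 6 fell, 3 and 3 with the 4 libraries alone, and the median was -0.46. Outside the stretches 3 of 13 rose and 4 fell, with a median of -0.06. Lamb1, the laminin beta 1 chain, rose from 1562 and 1421 to 3316 and 3860, and Lama4 from 18 and 17 to 83 and 107, with 971 and 967 in the KO. Lama2, the laminin chain of muscle, fell from 335 and 327 to 56 and 45. Of 34 matricellular and elastic fibre proteins, 14 fell and 5 rose, 7 and 2 with the 4 libraries alone. Fbn2, fibrillin 2, fell from 226 and 233 to 10 and 11, a change of -4.33 ± 0.12 (adjusted p = 2.4e-06), while the KO had 1162 and 1171. Postn, periostin, fell from 670 and 712 to 43 and 49, a change of -3.88 ± 0.13. Collagen-modifying enzymes included a fall of P3h2, a prolyl hydroxylase, from 720 and 696 to 161 and 152 and a rise of Serpinh1, the collagen chaperone in the chromosome 7 stretch, from 5461 and 5024 to 10781 and 11736.

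Matrix metalloproteases (MMPs) and their inhibitors were mostly lower where called: 12 of 30 fell and 5 rose, 7 and 1 with the 4 libraries alone. Mmp13, a collagenase, was 17420 and 17152 in the wild type, 3297 and 3867 in the locus deletion and 3791 and 3563 in the KO, a change of -2.27 ± 0.08 (adjusted p = 8.8e-06). Mmp3, stromelysin, was 27220 and 26992 against 9782 and 9501, and 4725 and 4519 in the KO. The inhibitor Timp2 fell from 8669 and 8175 to 3207 and 3861, and the direct difference from the KO was -1.46 (adjusted p = 1.2e-05). Plau, urokinase, rose from 620 and 613 to 1139 and 1225.

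Among developmental signalling pathways, BMP, WNT and hedgehog genes had more falls than rises, and Notch and TGF-beta genes had no such lean outside the stretches. Of 27 genes of the BMP pathway, 10 fell and 4 rose, 7 and 3 with the 4 libraries alone, with a median of -0.33. Bmp4, a ligand, fell from 1207 and 1243 to 398 and 400, a change of -1.62 ± 0.10. Bmpr1b, a receptor, and Bambi, a decoy receptor, rose from 272 and 225 to 514 and 540 and from 44 and 48 to 89 and 98.

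In the WNT pathway 13 of 39 genes fell and 6 rose, 7 and 3 with the 4 libraries alone. Rspo3, which strengthens WNT signals, fell from 583 and 677 to 122 and 128, a change of -2.32 ± 0.10 (adjusted p = 1.7e-05). Dkk2, an inhibitor, fell from 151 and 143 to 16 and 25. Sfrp2, a secreted WNT binder, rose from 74 and 94 to 287 and 278, while it was 5 and 9 in the KO, and it was not called when any of the 4 compared libraries was left out. Together with Fzd3, whose loss is described above, these genes span ligand modulators and receptors and moved both ways. In the hedgehog list 6 of 16 fell and 1 rose, 3 and 0 with the 4 libraries alone, and outside the stretches 5 of 14 fell and 0 rose. Of those that fell, Smo lies in the chromosome 6 stretch, and Evc and Evc2 are both on chromosome 5, which holds shorter runs of falls. Smo and Evc were not called with the 4 libraries alone. The part of chromosome position in the falls of this list was not tested. In the TGF-beta and activin list 8 of 25 fell and 6 rose, 4 and 1 with the 4 libraries alone, and outside the stretches 6 of 22 fell and 6 rose with a median of 0.12. In the Notch list 3 of 15 rose and 2 fell, 2 and 2 with the 4 libraries alone. Smad3, a signal transducer of TGF-beta, fell from 2007 and 1970 to 970 and 987, and Tgfb1 rose from 179 and 149 to 319 and 319.

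Ephrins, semaphorins, slits and their receptors, which guide axons and migrating cells, formed a list in which 18 of 38 members fell and 1 rose, 13 and 0 with the 4 libraries alone. The median was -0.58, and outside the stretches 15 of 35 fell and 1 rose. Slit2 fell from 14905 and 13505 to 6674 and 6699, Sema3c from 18187 and 18099 to 7712 and 9339, and the ephrin Efnb2 from 2988 and 2746 to 1197 and 1474. The receptor Robo2 was 43 and 40 in the wild type, 0 and 1 in the locus deletion and 968 and 1001 in the KO. Epha7, an ephrin receptor on chromosome 4, fell from 429 and 491 to 39 and 33. Neural markers moved in the same direction: the summed level of the 8 neural markers in the table was 5665 and 5783 in the wild type and 2729 and 3229 in the locus deletion, with 4 lower and 0 higher, while Sox10, Elavl3 and Pax6 were between 2 and 12 in both groups. The part of neural cells in the fall of guidance genes was not tested.

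Of 22 receptors and ligands of the PDGF and VEGF families, 9 fell and 4 rose, 5 and 0 with the 4 libraries alone. The receptor Nrp1 rose from 3533 and 3183 to 4849 and 5804, which was not called with the 4 libraries alone. Kdr, the VEGF receptor 2, was 96 and 92 against 7 and 9, and Flt4, the VEGF receptor 3, 107 and 77 against 1 and 1. The endothelial markers Pecam1, Cdh5, Tek and Cldn5 were between 0 and 11 in the wild-type and locus deletion libraries, and the summed level of the 7 endothelial markers in the table went from 185 and 178 to 60 and 45, with 2 of them lower (Kdr and Erg, the latter not called with the 4 libraries alone). The part of endothelial cells in these falls was not tested. Kitl, the ligand of KIT, fell from 1233 and 1292 to 587 and 645.

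Interferon-stimulated, complement and chemokine genes had more falls than rises in the locus deletion. Of 37 interferon-stimulated genes tested, 16 fell and 1 rose, 8 and 0 with the 4 libraries alone, with a median of -0.90. Outside the stretches 13 of 33 fell and 1 rose, and 17 of the 37 had a mean of at least 20, with a median of -0.40. Windows of fallen members are shown with the interferon-stimulated response element (ISRE, searched as GAAANNGAA on both strands) in capitals.

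Ifit1 (RefSeq, GRCm38.p6, chr19:34640639-34640938, plus strand, 3 matches): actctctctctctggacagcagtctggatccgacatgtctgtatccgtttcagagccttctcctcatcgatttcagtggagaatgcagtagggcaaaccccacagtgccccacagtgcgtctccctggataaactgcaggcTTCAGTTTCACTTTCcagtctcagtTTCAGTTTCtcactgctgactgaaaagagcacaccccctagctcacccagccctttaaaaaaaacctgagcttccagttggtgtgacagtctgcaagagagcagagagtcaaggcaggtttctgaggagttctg

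Gbp3 (chr3:142559794-142560093, plus strand, 2 overlapping matches): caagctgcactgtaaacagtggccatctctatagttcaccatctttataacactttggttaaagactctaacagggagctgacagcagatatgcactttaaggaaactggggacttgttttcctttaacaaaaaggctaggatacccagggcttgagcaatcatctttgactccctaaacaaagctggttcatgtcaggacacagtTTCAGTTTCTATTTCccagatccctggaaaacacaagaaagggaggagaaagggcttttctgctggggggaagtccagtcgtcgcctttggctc

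The element was in 17 of 31 windows of the list (54.8%) and in 8.56% of all windows. By gene, it was in the windows of 8 of 10 fallen members, 7 of 15 that were not called and the 1 that rose. None of the matches shown overlaps another motif searched. Gbp3, a guanylate-binding protein, was 18 and 13 in the wild type, 2 and 1 in the locus deletion and 157 and 151 in the KO. Ifit1, which binds viral RNA, was 280 and 396 against 120 and 203, a call (adjusted p = 0.018) that was lost with the 4 libraries alone (0.18). Ifi207, of the HIN200 family, fell from 390 and 443 to 72 and 99, a change of -2.29 ± 0.17 (adjusted p = 0.00014), and H2-D1, a class I histocompatibility gene, from 134 and 150 to 27 and 25. In the antigen presentation list, which holds H2-D1, 4 of 12 fell and 1 rose, 1 and 0 with the 4 libraries alone, and the median was 0.04. The Ifi, Gbp and class I families hold close copies, and the treatment of reads shared by copies is not given.

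Of 15 complement genes 8 fell and none rose, 4 and 0 with the 4 libraries alone. Clu, clusterin, fell from 98 and 78 to 15 and 16, and C1s1, a protease of the C1 complex, from 142 and 146 to 33 and 46. Among 41 chemokines, cytokines and NF-kappaB targets, 18 fell and 4 rose, 8 and 1 with the 4 libraries alone. Cxcl5, a neutrophil chemokine, was 2412 and 2844 against 1171 and 1357, and 18538 and 18900 in the KO. Il1rn, the interleukin 1 receptor antagonist, fell from 393 and 463 to 55 and 95. Cxcl1, Ccl2 and Il6 were not called, with adjusted p-values of 0.974, 0.225 and 0.591. Ptgs2, the inducible cyclooxygenase, rose from 14769 and 14352 to 22496 and 22704. Against the KO, 29 of the 37 interferon-stimulated genes, 9 of the 15 complement genes and 30 of the 41 chemokine and cytokine genes were lower in the locus deletion, and 3, 2 and 4 were higher. The markers of macrophages and blood cells in the table were low in both groups (summed level 61 and 46 against 56 and 59), with none called.

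The integrated stress response, in which the transcription factor ATF4 turns on amino acid synthesis and transport, was higher. Of its 35 genes 19 rose and 2 fell, 14 and 1 with the 4 libraries alone, with a median of 0.35, and outside the stretches 17 of 30 rose and 1 fell. Atf4 rose from 5512 and 5429 to 8817 and 8842, a change of 0.69 ± 0.06 (adjusted p = 0.00028). Cth, which makes cysteine from cystathionine, rose from 149 and 198 to 519 and 490, and Slc7a11, the cystine transporter, from 123 and 125 to 368 and 337. Trib3, a pseudokinase, rose from 145 and 133 to 390 and 331, and Aldh1l2, a mitochondrial folate enzyme, from 736 and 783 to 1811 and 1977. The KO was as high or higher for several: Slc7a11 was 1054 and 1022 and Aldh1l2 3392 and 3514 there, and 19 of the 35 genes were lower and 4 higher in the locus deletion than in the KO. Asns, asparagine synthetase, lies in the chromosome 6 stretch and was 3155 and 3243 against 2621 and 2753, a change of -0.25 (adjusted p = 0.028, and 0.068 with the 4 libraries alone). Ddit3, which encodes CHOP, was not called (0.35, adjusted p = 0.063).

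The endoplasmic reticulum stress response list, which holds chaperones, degradation factors and stress sensors, had 11 of 26 higher and 1 lower, 6 and 0 with the 4 libraries alone. Sdf2l1 rose from 1445 and 1443 to 2551 and 2442 and Manf from 3613 and 3650 to 5993 and 5702. The abundant chaperone Hspa5 (BiP) was 71814 and 68554 against 100146 and 102284, a change of 0.53 ± 0.07 (adjusted p = 0.0013), which was not called with the 4 libraries alone (0.12). Levels in the KO were below wild type for these 3, with Sdf2l1 at 441 and 441. In the heat shock list 9 of 31 rose and 2 fell, 1 and 2 with the 4 libraries alone. Of 39 NRF2 and glutathione genes 15 rose and 7 fell, 8 and 3 with the 4 libraries alone, and the glutathione transferase Gsta4 rose from 50 and 55 to 355 and 384, against 7 and 6 in the KO. Slc7a11 is in this list also.

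Cell cycle genes split by phase. Of 40 mitotic and G2 genes 19 rose and none fell, 11 and 0 with the 4 libraries alone, with a median of 0.24, and 18 of 37 rose outside the stretches. Of 40 S phase and replication genes 20 fell and 3 rose, 8 and 1 with the 4 libraries alone, with a median of -0.22, and 16 of 35 fell and 2 rose outside the stretches. Windows of mitotic genes are shown because most of them hold the cell cycle homology region (CHR, searched as TTTGAA on both strands), at which mitotic genes are known to be repressed outside division.

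Ube2c (RefSeq, GRCm38.p6, chr2:164769679-164769978, plus strand, match in capitals starting 29 bases before the start): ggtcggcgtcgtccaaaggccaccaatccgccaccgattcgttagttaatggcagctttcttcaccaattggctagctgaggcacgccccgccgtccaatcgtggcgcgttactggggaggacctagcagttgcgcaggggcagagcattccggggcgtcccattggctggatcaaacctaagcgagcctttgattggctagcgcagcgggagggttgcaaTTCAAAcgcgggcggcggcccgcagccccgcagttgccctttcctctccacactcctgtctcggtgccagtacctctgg

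Aurka (chr2:172370521-172370820, minus strand, match 32 bases after the start): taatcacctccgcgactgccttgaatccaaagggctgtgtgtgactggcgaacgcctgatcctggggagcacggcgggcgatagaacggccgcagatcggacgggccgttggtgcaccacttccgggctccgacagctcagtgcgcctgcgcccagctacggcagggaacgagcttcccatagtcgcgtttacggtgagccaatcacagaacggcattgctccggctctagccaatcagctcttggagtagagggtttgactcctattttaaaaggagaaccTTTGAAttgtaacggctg

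The CHR letters were in 27 of 38 windows of the mitotic list (71.1%) and in 17.9% of all windows. They were in the windows of 10 of the 14 members that rose and of 14 of the 21 that were not called, and neither match shown overlaps another motif searched. Ube2c, the ubiquitin-conjugating enzyme of the anaphase-promoting complex, rose from 362 and 419 to 737 and 841, a change of 1.01 ± 0.11 (adjusted p = 0.00071). Aurka, a mitotic kinase, rose from 1331 and 1314 to 2082 and 2330, and Cenpe, a kinetochore motor, from 4191 and 4858 to 7142 and 7161, a call lost when either KO library was left out of the fit. Compared with the KO, 35 of the 40 mitotic genes were higher in the locus deletion and none was lower.

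The S phase list includes polymerases, licensing factors and histone regulators. Pola2, a subunit of DNA polymerase alpha, fell from 2305 and 2200 to 1310 and 1513, a call lost without either KO library, and Slbp, which binds histone messages, from 2924 and 3028 to 2010 and 1937. Ccne2, cyclin E2 on chromosome 4, fell from 2685 and 3086 to 1417 and 1324. Of 43 replication-dependent histone genes 7 rose and 3 fell, 1 and 2 with the 4 libraries alone. Among cyclins and their inhibitors 8 of 19 fell and 2 rose, 4 and 2 with the 4 libraries alone, and those that rose, cyclin D2 (Ccnd2) and p27 (Cdkn1b), went from 5817 and 5483 to 9199 and 8835 and from 918 and 973 to 1414 and 1559. An E2F site, searched as TTTCGCGC, was in 17.5% of windows of the S phase list and in 0.323% of all windows. It was held by 5 of 17 fallen members, 2 of 14 not called and 0 of 2 that rose.

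Cytoplasmic ribosomal proteins rose by small amounts, with 38 of 80 higher and 1 lower, 12 and 0 with the 4 libraries alone, and a median of 0.28. Outside the stretches 33 of 70 rose and none fell. Rpl22l1, a paralog of Rpl22, rose from 173 and 198 to 440 and 420, a change of 1.21 ± 0.11. The next largest rises, such as Rps3 from 2038 and 2182 to 4425 and 4095 and Rpl18 from 1091 and 1130 to 2244 and 2156, were of genes in the chromosome 7 stretch. Ribosome biogenesis factors had 11 of 27 higher and none lower, 2 and 0 with the 4 libraries alone. Many ribosomal protein genes have processed pseudogenes, so their counts are uncertain where reads match both.

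**Figure D5:**
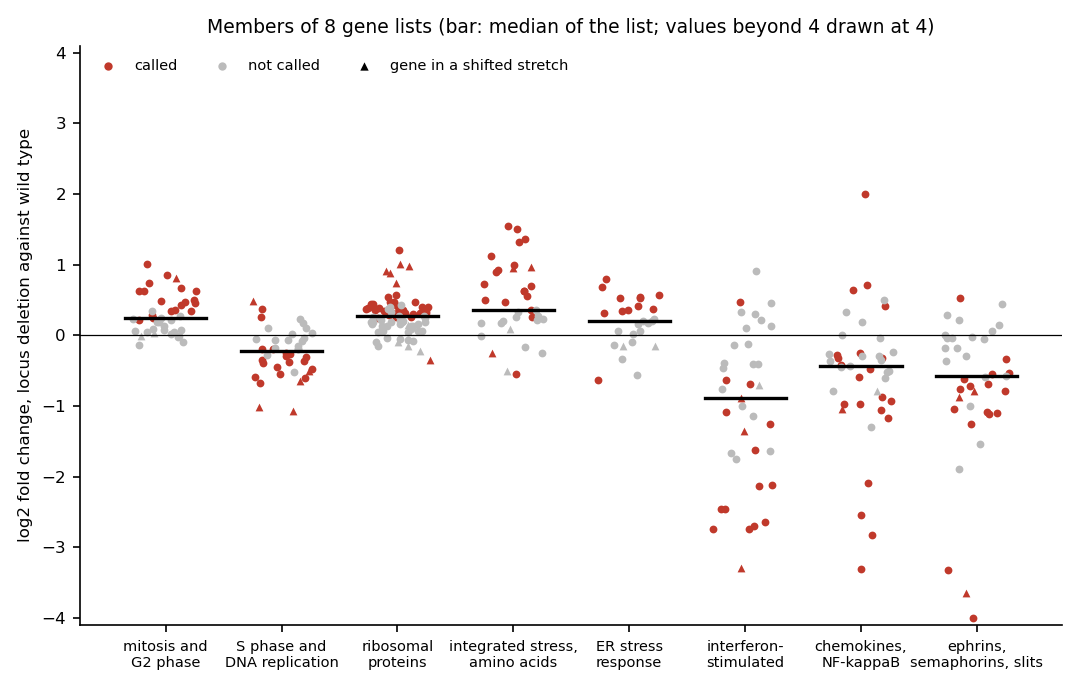
Log2 fold change of the members of 8 gene lists in the locus deletion against wild type. Each point is a gene, red where called, triangles lie in a shifted stretch, bars are list medians, and values beyond 4 are drawn at 4. Members of the mitotic and ribosomal lists cluster slightly above 0 (medians 0.24 and 0.28), and those of the interferon list spread down to -3.29.

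Immediate early genes had no common direction, with 9 of 26 lower and 6 higher, 4 and 4 with the 4 libraries alone. Egr1, a zinc-finger factor induced by growth signals, fell from 1967 and 1784 to 556 and 618, a change of -1.67 ± 0.08 (adjusted p = 2.1e-05), and the nuclear receptor Nr4a2 from 685 and 653 to 210 and 250. Klf4 and Jun, both on chromosome 4, fell from 1873 and 1790 to 471 and 540 and from 4549 and 4405 to 2036 and 2402. Fos and Junb had adjusted p-values of 0.11 and 0.14. Among clock genes 7 of 19 fell and 2 rose, 5 and 2 with the 4 libraries alone, with the repressor Nr1d2 down from 2277 and 2141 to 1280 and 1411 and Nfil3, another repressor, up from 89 and 104 to 214 and 189.

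Regulators of limb and body position had more falls than rises. Of 33 Hox genes tested 7 fell (21.2%) and none rose, but only 11 of the 33 had a mean of at least 20. Over all genes tested 12.6% fell, and 17.6% of those with a mean of at least 20. With the 4 libraries alone 6 Hox genes fell and 0 rose, and the 6 are not all among the 7. Hoxa3, Hoxa10 and Hoxc6 were not called there, with adjusted p-values of 0.075, 0.14 and 0.13. Hoxd8, Hoxd10 and Hoxb6, called in both fits, were at 2 to 7 in the wild type. Hoxa13, which marks the distal limb, was 679 and 636 against 444 and 447. Hoxc6, called only in the fit of 6 libraries, was 3 and 1 in the wild type, 0 and 0 in the locus deletion and 1250 and 1212 in the KO, and 23 of the 33 Hox genes were lower and 4 higher in the locus deletion than in the KO. Of 45 limb, trunk and craniofacial regulators 14 fell and 3 rose, 7 and 2 with the 4 libraries alone, and Irx3 rose from 265 and 233 to 679 and 764. The retinoid-binding protein Crabp2 fell from 968 and 995 to 294 and 303, against 344 and 319 in the KO.

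Gene families were ranked by the share of members called, among families with at least 8 members at a mean of at least 20. The MMP family led with 7 of 10 members lower and 1 higher, 5 and 0 with the 4 libraries alone. Of those that fell, Mmp1b, Mmp3, Mmp10 and Mmp13 are all on chromosome 9. That chromosome holds a run of 14 genes that met the window rule for falls (chr9:4376562-7837064) but was too short to form a stretch. The TNF receptor superfamily (Tnfrsf) had 6 of 8 lower and none higher, 2 and 0 with the 4 libraries alone, with the decoy receptor Tnfrsf11b falling from 1131 and 1176 to 606 and 564. Interferon-inducible Ifi genes had 6 of 9 lower and none higher, 3 and 0 with the 4 libraries alone. Of these, Ifi203, Ifi207 and Ifi209 are all on chromosome 1, which also holds such a run of 14 genes (chr1:172500047-175625635). The part of chromosome position in the falls of the MMP and Ifi families was not tested. The low-density lipoprotein receptor relatives (Lrp) had 4 of 9 higher and 3 lower, 2 and 0 with the 4 libraries alone, with Lrp4 up from 17 and 24 to 78 and 77 and Lrp1, the most abundant, down from 26961 and 23470 to 16810 and 15577, which was not called with the 4 libraries alone. The alpha integrins had 5 of 10 higher and 2 lower (2 and 0 with the 4 libraries alone) and tetraspanins 3 of 12 higher and 5 lower (1 and 1). The ADAMTS proteases had 3 of 8 higher and 2 lower (1 and 1), with Adamts6 up from 634 and 639 to 1242 and 1311. In the aldo-keto reductases 5 of 8 members lie in the shifted stretches, and 4 fell and 1 rose (2 and 1 with the 4 libraries alone).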

How the data were processed

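The deposited values are scores in the sense that the authors' normalised read counts had been rounded to whole numbers before deposit. Per the submitters' processing notes, the tools were FastQC, STAR 2.5.3a, Subread with featureCounts 1.6.0 and DESeq2 1.14.1, with mouse build GRCm38 (mm10). Counting strand and the treatment of reads that match several places are not given in the sources used here. Because the values are not raw counts, no count model was fitted.

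Values were analysed as log2(value + 1) with limma 3.58.1 (empirical Bayes with a trend, R 4.3.3) in a fit of 6 libraries with 3 groups, and p-values were Benjamini-Hochberg adjusted over every gene whose 6-library mean reached 1. The worth of 1 read was estimated from the spacing of low values. Summaries used Python 3.11.15 with pandas 2.3.3, numpy 2.4.6 and matplotlib 3.10.9. Gene positions came from GENCODE annotation of GRCm38, and promoter windows from RefSeq. The fit was tested on simulated data. Alternatives changed the pseudocount, the filter, the scaling, the trend, the block and the libraries in the fit.

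Genes were named by rule: the 20 largest changes in each direction among called genes whose mean reached 20, no more than 10 called members of each of 64 lists, Actg1 with its neighbours, up to 4 members of each of 10 families, and windows of 10 neighbouring genes of which 6 or more were called. Srf, Atf4, Ifit1, Ptgs2, Cyr61, Asns, the cell type markers and all genes given as not called lie outside that rule and were chosen after their values were seen. The 20 largest changes in each direction were taken only from genes whose wild-type and locus deletion values did not overlap. Members and lists were chosen with earlier results of these data known. A few items, among them 1 gene list, are not reported here.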

Additional observations from a re-analysis of the deposited data

How the results depend on the processing

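The counts of genes higher and lower in the locus deletion than in wild type (2042 and 2713) stayed within 1.5 times under both pseudocounts, both filters and both rescalings. They were 727 and 1355 in limma without a trend and 699 and 1189 with only the 4 compared libraries, where fewer samples estimate the spread; the cause of the first was not tested. Leaving out 1 library at a time gave 693 to 1223 higher and 1030 to 2207 lower, and against the KO 2680 to 3982 higher and 2946 to 4762 lower. A group left with 1 library is assumed there to vary like the others. The fits without a KO library, the crossed block and the counts outside the stretches were chosen after seeing the data. With the replicate block the counts were 1767 and 2486, and 4322 and 5099 against the KO. The replicate numbers do not pair the libraries: over 11229 genes the deviations of same-numbered libraries correlated at -0.302 (wild type and KO), -0.211 (wild type and locus deletion) and 0.214 (KO and locus deletion). With the wild-type numbers crossed, the counts were 2184 and 2822, and 4603 and 5393 against the KO. Of the 603 genes named by the rule, none reversed under these alternatives, and 261 lost their call with the 4 libraries alone. The 603 include neighbours of Actg1 that were called in neither fit. A reversal was not possible without the trend, without a KO library or with the 4 libraries alone, since the fold change stays the same there. With 2 libraries a group, small changes of low genes are the least certain.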

Other observations

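Imprinted genes moved one by one. Peg10, a retrotransposon-derived gene in the chromosome 6 stretch, rose from 3678 and 3353 to 8250 and 8249 while most genes around it were lower, and 4 of the 25 imprinted genes tested rose and 3 fell. With the 4 libraries alone 5 rose and none fell, and outside the stretches 2 of 15 rose and 3 fell. Among 32 ion channel and calcium signalling genes 3 rose and 7 fell, 2 and 3 with the 4 libraries alone. Piezo2, a mechanically gated channel, fell from 881 and 827 to 125 and 144 and was 49 and 53 in the KO. Kcnj2, an inward rectifier potassium channel, fell from 1498 and 1580 to 379 and 351, and its relative Kcnj15 rose from 25 and 28 to 148 and 139.

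Medians over whole chromosomes also differed between the KO and the locus deletion libraries. The median log2 difference from wild type on chromosome 16 was -0.82 in the KO and 0.14 in the locus deletion, and on chromosome 2 it was -0.52 and 0.11. Both differences use the same wild-type libraries. The direct difference between locus deletion and KO had medians of 0.95 on chromosome 16 and 0.64 on chromosome 2. The labels give no number of clones, so a difference between alleles and a difference between cell lines cannot be told apart.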
